A study of Oryza sativa with 3 samples.

Results

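The genes described here encode ribosomal proteins and factors that act on messenger RNA during translation, measured in the shoot tip of young rice seedlings. A gene was a member if its symbol or a synonym, without a leading Os, began with RPL or RPS and a digit, with EIF, with TIF and a digit, or with REFA, or was GOS2. Of 17905 genes with a probe set on the array, 33 were members: 13 of the large ribosomal subunit, 12 of the small subunit and 8 translation factors. The rule used names and no measured value. In the gene table of assembly ASM3414082v1, 79 genes had such a name. The other 46 were not analysed here; 26 of these lie in the plastid genome, 13 in the mitochondrial genome and 7 in the nucleus. The values are therefore those of nuclear genes, and of the few that carry a short name: only RPL7A-1 had a matching primary symbol, and the other 32 matched by a synonym.

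RNA came from 3 shoot-tip samples of Hitomebore, a temperate japonica rice cultivar, which the labels call biological replicates 1 to 3 of the group CK shoot. No treatment, genotype change or age beyond the growth conditions is given, and the labels do not spell out CK. Seeds germinated for 2 days in darkness at 28 °C, and seedlings then grew at 26 °C under a greenhouse cycle of 16 h light to 8 h dark until harvest about 48 h later. With a single group there is no contrast between conditions, so the questions are whether these genes gave signal and how far the 3 samples differed.

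A ribosome joins a small subunit, which reads the messenger RNA, to a large subunit, which forms the peptide bonds. Plants usually have several genes for each ribosomal protein, and the proteins are made in near-equal numbers, most of all in young growing tissue such as shoot tips. Initiation factors bind the cap of the messenger, unwind its leader and choose the start codon, and elongation factors then bring aminoacyl-tRNA to the ribosome.

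All 33 members gave signal above background on all 3 arrays. Values are log2 probe set values, and background was bounded by the highest of 17 Tag control probe sets, which read 4.98, 4.88 and 4.97 on replicates 1, 2 and 3. Over all genes, 81.3% lay above this ceiling on every array. The median of the members' means was 13.42, against 8.28 over all genes, and the highest value on any array was 14.71. How bright a probe set is also reflects how well its probes bind, so neither this difference nor the levels below rank RNA amounts between genes. In bulk tissue, fewer cells of a type and less RNA per cell cannot be told apart.

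**Figure D1:**
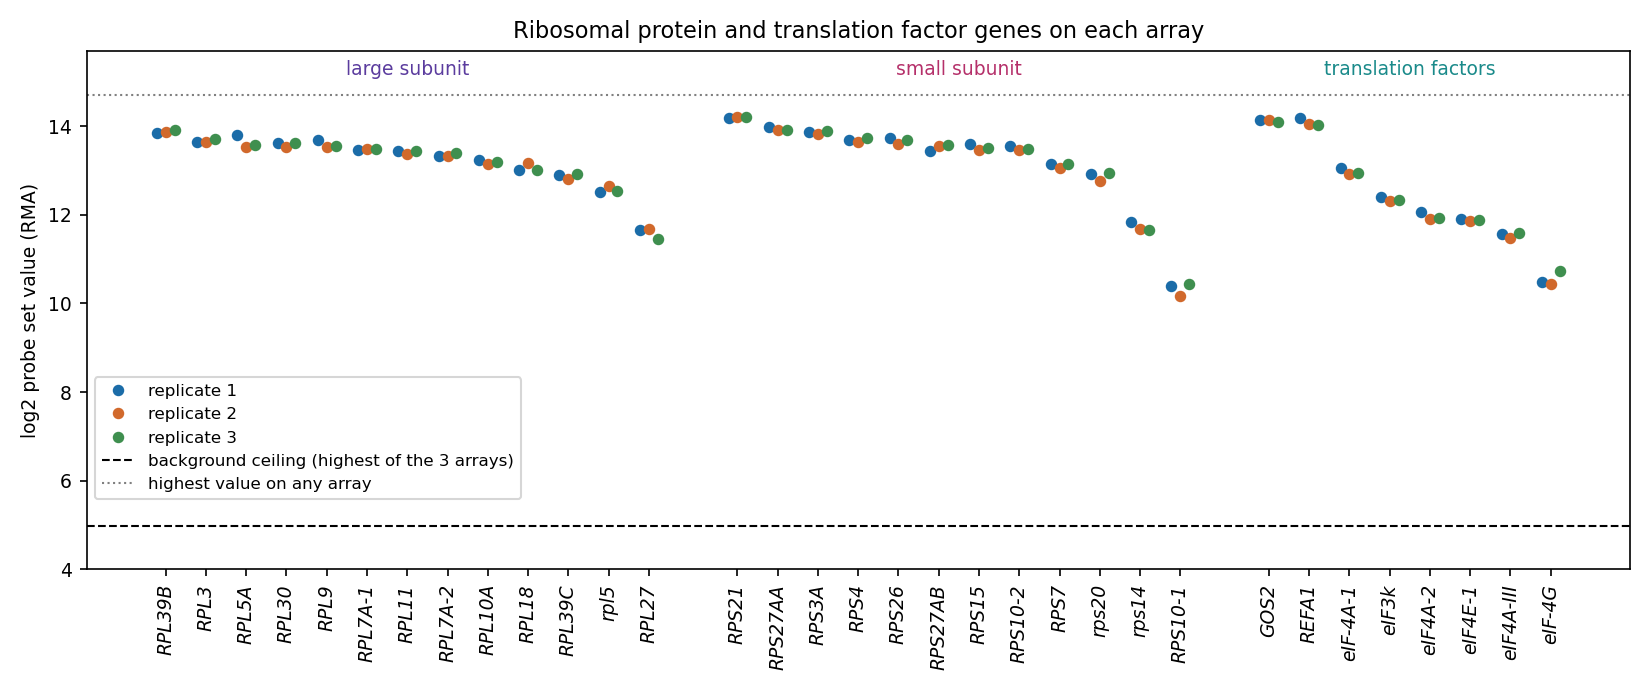
Log2 probe set values (y axis) of the 33 genes (x axis, by class and then by mean) on replicates 1, 2 and 3, as 1 point per array. All points lie between 10.18 and 14.21, well above the dashed background ceiling, and the 3 points of a gene nearly coincide.

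Genes of the large subunit had means from 11.59 to 13.88, with a median of 13.42 over the 13 genes. RPL39B (LOC4331014), a small protein at the exit tunnel of the growing peptide, read 13.86, 13.87 and 13.92 on replicates 1, 2 and 3. RPL3 (LOC4351604), a core protein near the peptide-forming centre, read 13.65, 13.65 and 13.71. The 3 samples were nearly level for both genes, with the highest value on replicate 3. RPL5A (LOC4325100), which binds 5S ribosomal RNA, read 13.80, 13.53 and 13.58, and so stood highest on replicate 1. RPL11 (LOC4338077), its partner on 5S RNA, did not share that pattern: it read 13.44, 13.38 and 13.44.

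RPL9 (LOC4347422), another large subunit protein, resembled RPL5A, with 13.69, 13.52 and 13.55. RPL18 (LOC4334651) went the other way, with 13.00, 13.17 and 13.01, highest on replicate 2. The gene listed as rpl5 (LOC4331459), separate from RPL5A, also peaked there, at 12.52, 12.66 and 12.53. The sources used here do not say in which ribosome the rpl5 protein works. RPL27 (LOC4327257) was the large subunit gene lowest on replicate 3, with 11.66, 11.68 and 11.45. RPL18 and RPL27 also carry the names CL18 and CL27. The class was set by name alone, so neither need be a protein of the cytosolic ribosome.

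RPL7A-1 (LOC4345279) gave 13.47, 13.48 and 13.48, the smallest spread of all members, 0.0066 (SD, n = 3). Values of replicates 2 and 3 were identical, as were those of replicates 1 and 3 for RPL11. RPL7A-2 (LOC4347522), the second gene for this protein, read 13.35 ± 0.039 (SD, n = 3). RPL30 (LOC4324441) read 13.59 ± 0.049, RPL10A (LOC9266191), the protein of the mobile L1 stalk, 13.19 ± 0.036, and RPL39C (LOC9268459) 12.88 ± 0.052 (SD, n = 3). For these 3, as for RPL7A-2, replicate 2 was lowest.

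Genes of the small subunit had means from 10.34 to 14.19, with a median of 13.52 over the 12 genes. RPS21 (LOC4332813) read 14.18, 14.20 and 14.21, a spread of 0.016 (SD, n = 3). RPS27AA (LOC4326977), which encodes ubiquitin joined to a ribosomal protein, read 13.98, 13.90 and 13.90. RPS3A (LOC4331966), also named CYC07, read 13.86, 13.83 and 13.89. In these 3 genes no samples differed by more than 0.078 log2, the range of RPS27AA.

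RPS10-1 (LOC4329619) and RPS10-2 (LOC4335865) carry the name of the same protein, which sits near the entry of the messenger RNA. RPS10-1 read 10.38, 10.18 and 10.45, lowest on replicate 2. RPS10-2 read 13.55, 13.47 and 13.48, and so was highest on replicate 1 and also lowest on replicate 2. The SDs were 0.14 and 0.046 (n = 3), so the samples lay further apart for RPS10-1. RPS27AB (LOC4337883), the other ubiquitin fusion gene, also named UBQ6, differed from RPS27AA in being lowest on replicate 1, with 13.43, 13.56 and 13.57.

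The gene listed as rps20 (LOC4340027) read 12.92, 12.76 and 12.94, again lowest on replicate 2. The gene listed as rps14 (LOC4344541) also carries the name SDH2-1, a subunit of succinate dehydrogenase. In rice this nuclear gene is known to give, by alternative splicing, both that enzyme subunit and a mitochondrial ribosomal protein, so its signal is not that of a cytosolic ribosomal protein alone. It read 11.83, 11.67 and 11.65, highest on replicate 1.

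The other small subunit genes varied little. RPS4 (LOC4328016) read 13.69 ± 0.037, RPS26 (LOC4327570), which lies at the exit of the messenger RNA, 13.67 ± 0.066, and RPS15 (LOC4342580) 13.51 ± 0.068 (SD, n = 3). RPS7 (LOC4338485), which is also needed to assemble the small subunit, read 13.12 ± 0.048 (SD, n = 3). Replicate 2 was lowest for all 4.

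Translation factors had means from 10.56 to 14.13, with a median of 12.16 over the 8 genes. GOS2 (LOC4343445), the rice counterpart of initiation factor eIF1, which helps to choose the start codon, read 14.14, 14.14 and 14.10. REFA1 (LOC4331810) stands for elongation factor 1 alpha, which carries aminoacyl-tRNA to the ribosome; the annotation joins the names REFA1, REFA2, REFA3 and REFA4 under this gene. It read 14.19, 14.05 and 14.02, highest on replicate 1. The SDs were 0.018 for GOS2 and 0.090 for REFA1 (n = 3). Their order depended on the probe set, as the second brightest gave 0.21 for GOS2 and 0.030 for REFA1. On the same arrays 3 control probe sets named for rice elongation factor 1 alpha lay below the ceiling throughout, at 3.12 to 4.85.

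The parts of the cap-binding complex eIF4F gave signal on every array. eIF4E-1 (LOC4323837), which binds the cap, read 11.88 ± 0.023 (SD, n = 3). Of the eIF4A helicases, which unwind the leader, eIF-4A-1 (LOC4341966) read 13.06, 12.93 and 12.95 and eIF4A-2 (LOC4328286) 12.05, 11.91 and 11.92. Both were highest on replicate 1 in the probe set used, with replicates 2 and 3 nearly equal. A second probe set of eIF-4A-1 read 11.70, 11.54 and 11.71, highest on replicate 3 and lowest on replicate 2. The scaffold eIF-4G (LOC4343565), which holds these proteins together, did not follow the probe sets used for them, but had the same order of arrays as that second one. It read 10.49, 10.45 and 10.74, highest on replicate 3 by a shift of 0.27 log2, where a shift is the difference between 1 array and the average of the other 2. This was the largest shift of any member on any array.

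The gene listed as eIF4A-III (LOC4333273) belongs by sequence to the eIF4A helicases, but its protein is known as a core part of the exon junction complex and not as an initiation factor. It read 11.57, 11.47 and 11.59. The subunit eIF3k (LOC4331842) of the large initiation factor eIF3 read 12.35 ± 0.050 (SD, n = 3). Replicate 2 was lowest for both.

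The 3 samples differed little in these genes. Between its highest and lowest array a member differed by 1.01-fold (RPL7A-1) to 1.22-fold (eIF-4G), with a median of 1.07-fold. The median SD was 0.049 for the large subunit, 0.057 for the small subunit and 0.065 for the factors, against 0.12 over all genes. SDs fall towards bright probe sets, and the 3017 other genes with means within the members' range had a median SD of 0.083. An SD under 0.1 log2 was found for 28 of 33 members, against 40.9% of all genes and 61.7% of the other genes in that range. Those over it were RPL5A, RPL27, RPS10-1, rps14 and eIF-4G.

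Without replicate 1 the median SD of the factors was 0.015, and without replicate 2 that of the large subunit was 0.021, so both medians rested in large part on 1 array. Values near the top of the scale may also be compressed, and the deposited table holds no mark of saturated spots.

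**Figure D2:**
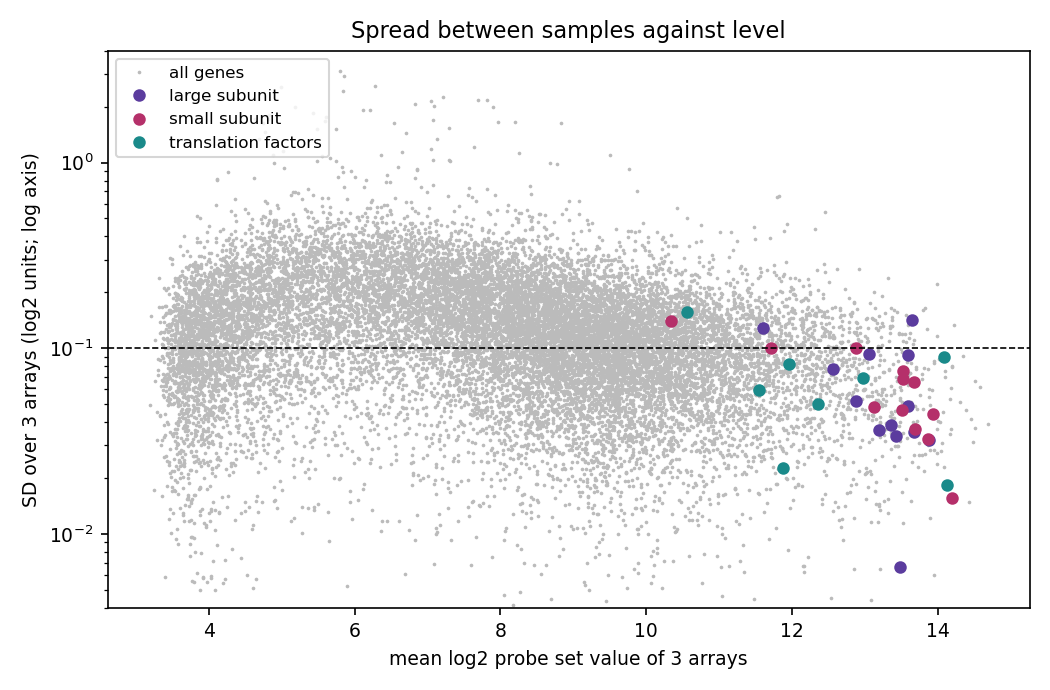
SD over the 3 arrays (y axis, log axis, log2 units) against the mean log2 probe set value (x axis) for all genes (grey) and the 33 members (coloured by class); the dashed line is an SD of 0.1, and 83 genes with an SD under 0.004 fall outside the plot. Of the members, 28 lie under the line, and RPL7A-1 is the lowest point at 0.0066.

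No member passed the test for spread beyond its level. A variance ratio (F) test was built on a limma fit of all 57258 probe sets that are not controls. In it each variance was set against the trend of variance with level. After Benjamini-Hochberg adjustment over all probe sets 0% passed at 0.05. At an unadjusted p under 0.05 it was 2.43%, a share below that threshold, or 1393 probe sets. Of these, 0 were the probe sets used for members. The lowest value among the 33 was that of RPL5A, with an unadjusted F test p of 0.0957 and an adjusted p of 0.94. An SD had to reach 2.76 times its trend for an unadjusted p of 0.05, and RPL5A reached 2.19 times. The adjusted p asked for far more. An RPS21 probe set other than the one used reached 9.32 times its trend, with an adjusted F test p of 0.846. With 3 arrays the test therefore finds only large differences, and after adjustment only very large ones. That no probe set passed does not show that the members were equal in the samples. The labels do not say which plants went into a sample, so the p-values measure only the spread between these samples, which may be technical.

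Replicate 2 was the lowest array for most members, by a small margin. It was lowest for 23 of 33 genes, against 36.2% of all genes and 40.6% of the other genes within the members' range of means. That count uses the brightest probe set of each gene. Of the members' 24 other probe sets, 12 were lowest on replicate 2. By class it was lowest for 8 of 13 large subunit genes, 9 of 12 small subunit genes and 6 of 8 factors. The median shift on replicate 2 was -0.037, -0.065 and -0.064 for these classes, -0.031 over all genes and -0.029 over the other genes in that range. Without replicate 3 the large subunit median was -0.0046, and without replicate 1 that of the factors was -0.015. Over all 33 members the median shift was -0.057, a difference of 1.04-fold. A shift over 0.1 in size on any array was found for 16 of 33 members, against 80.3% of all genes and 67.2% of the others in the range. These counts were not tested, since an array set against the others of its group is no comparison of conditions.

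Only 3 members were highest on replicate 2: RPL18, rpl5 and RPL27, all placed in the large subunit by name, against 24.7% of all genes. The name does not show in which ribosome each of them works. RPL18 had a shift of 0.16, rpl5 of 0.13 and RPL27 of 0.13. The most negative shifts there were -0.24 for RPS10-1, -0.17 for rps20, -0.16 for eIF-4G and -0.16 for RPL5A.

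Replicate 1 was highest for 6 of 8 factors and 6 of 12 small subunit genes, against 22.8% of all genes but 40.6% of the other genes in the members' range. For the large subunit it was highest for 3 of 13 genes and lowest for 4. Over all 33 members it was lowest for 6, against 39.1% of all genes and 23.2% of the others in the range. The median shifts were 0.061 for factors, 0.073 for the small subunit and 0.029 for the large subunit. When the probe sets of each gene were averaged the last value was -0.011, and the value of the small subunit was -0.0066 without replicate 2, so that neither subunit had a settled direction on this array. The largest shifts were 0.24 for RPL5A, 0.17 for rps14, 0.16 for RPL9, 0.15 for REFA1 and 0.14 for eIF4A-2.

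Replicate 3 showed no direction common to all 3 classes. It was lowest for 4 of 33 members, against 22% of all genes and 34.5% of the other genes in the members' range. It was highest for 5 large subunit genes, 6 small subunit genes and 2 factors, 13 of 33 in all, against 49.9% of all genes and 33.6% of the other genes in the members' range. The median shift was 0.0064, 0.031 and -0.032 for the 3 classes, slightly above 0 for both subunits and below 0 for the factors. After eIF-4G the largest shifts were -0.22 for RPL27, 0.17 for RPS10-1, -0.10 for rps14 and 0.097 for rps20. The value of RPL27 depended on the probe set: its 2 others read 10.17, 10.23 and 10.28, and 5.46, 5.64 and 5.85, both highest on replicate 3.

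**Figure D3:**
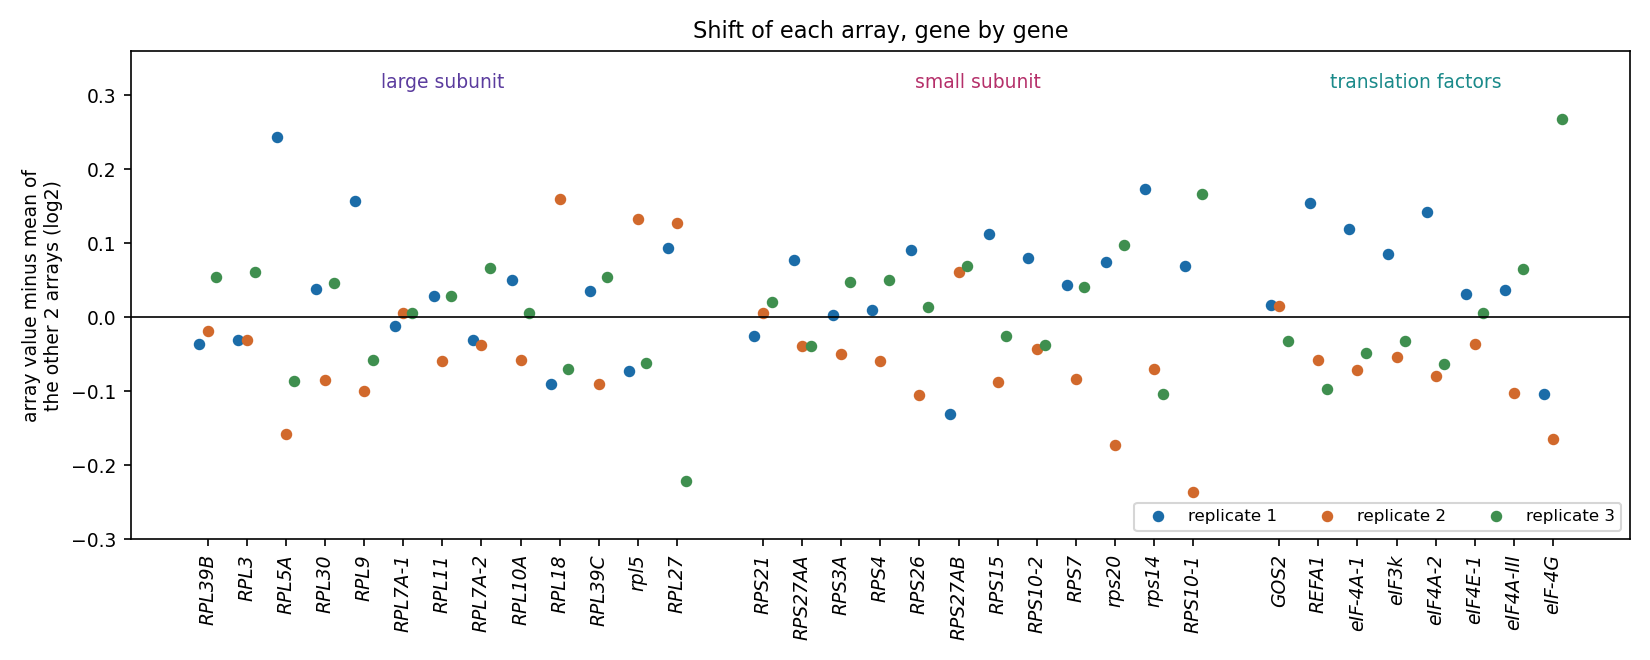
Shift of each array (y axis: difference from the average of the other 2 arrays, log2) for the 33 genes (x axis), with 1 point per array. Replicate 2 is the lowest point for 23 genes, and all shifts lie between -0.24 and 0.27.

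Some controls and marker genes also differed between the 3 arrays, by more than the members did and not always in the same direction. On replicate 3 the 4 control probe sets for 18S, 25S and 28S ribosomal RNA averaged 9.59, against 12.05 and 11.73 on replicates 1 and 2. That is a shift of -2.30, beside a median shift of 0.0064 for large subunit protein genes and 0.031 for those of the small subunit. The 27 hybridization controls, added to each sample in fixed amounts, averaged 11.07, 10.80 and 10.31.

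On replicate 2, all 9 seed storage genes were highest, with medians of 3.71, 6.61 and 3.85, although only 1 of the 9 lay above the ceiling on every array. All 8 green leaf genes were highest there too, with medians of 12.67, 12.84 and 12.44, and 7 of these lay above the ceiling on every array. Of all genes, 24.7% were highest on replicate 2. Of 22 genes of dividing cells, 14 were lowest on replicate 2, against 36.2% of all genes. Of the same 22, 17 were highest on replicate 3, against 49.9% of all genes. The medians of these genes were 9.40, 9.30 and 9.60. Their median shift was -0.18 on replicate 2 and 0.24 on replicate 3. Of the shoot meristem genes, OSH71 exceeded the ceiling on every array, OSH1 on 2 arrays and OSH43 on none, and OSH15 was not analysed here. All 3 were lowest on replicate 2, with a median shift of -1.52: OSH1 read 6.25, 3.73 and 6.47, and OSH71 6.67, 4.93 and 6.24. Among root genes, 2 of 3 lay above it on all arrays. The part of any of these lists in the members' shifts was not tested.

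Other genes of the translation pathway also gave signal above background, and most were lowest on replicate 2. A search by name gave 14, of which 3 were left out because their other names or position belong to other genes: FIB (TAR2), MAF1 (MADS13) and AL1. The remaining 11 all lay above the ceiling on every array, as did 81.3% of all genes. Their median level was 11.45 and their median SD 0.088. Of these 11, 8 were lowest on replicate 2, against 36.2% of all genes. Over the 11 the median shift there was -0.11, beside -0.031 over all genes.

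The beta subunit of elongation factor 1 (EF-1-beta, LOC4344188), which recharges elongation factor 1 alpha, read 13.63, 13.55 and 13.64. The mitochondrial elongation factor EF-Ts (LOC4345504) read 9.88, 9.53 and 9.83. RACK1A (LOC4324115), a scaffold protein on the small subunit, read 13.71, 13.61 and 13.73, and RACK1B (LOC4339539) 12.01, 11.86 and 12.03. In these 4 genes replicates 1 and 3 were nearly level and replicate 2 was lowest.

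The tRNA ligases LysRS, HisRS and MetRS, which charge tRNAs with lysine, histidine and methionine, read 11.17 ± 0.093, 10.07 ± 0.11 and 10.27 ± 0.12 (SD, n = 3). All 3 were lowest on replicate 2 and highest on replicate 3. LST8 (LOC4333729), a partner of the growth-controlling kinase TOR, read 9.13 ± 0.037 and was also lowest on replicate 2. Of the others, TCTP, a translationally controlled protein tied to growth, read 13.81 ± 0.022, OsPAB1, a poly(A)-binding protein, 11.45 ± 0.069, and ASL1, a protein of the plastid ribosome, 12.45 ± 0.088 (SD, n = 3). None of these 3 was lowest on replicate 2.

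Several genes had more than 1 probe set, and these often disagreed in level. The 12 such members had 36 probe sets, and the brightest was used for each gene. Of the 24 others, 20 exceeded the ceiling on every array and 4 did not. The latter belong to RPL10A, rps20, eIF-4A-1 and eIF-4G. For RPL10A the second probe set read 4.52, 4.53 and 4.83, under the ceiling on all 3 arrays, where the first read 13.23, 13.16 and 13.20. For eIF-4A-1 the dimmest probe set read 4.42, 4.47 and 4.47. For rps20 the dimmest of 4 read 4.99, 4.76 and 4.66, above the ceiling on replicate 1 alone.

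The probe sets of eIF-4G differed in level and in which array was lowest. The brightest read 10.49, 10.45 and 10.74, and the other 3 had means of 5.90, 5.45 and 4.63. The first of these read 5.50, 6.07 and 6.14 and so was lowest on replicate 1, where the brightest was lowest on replicate 2. By contrast, both probe sets of REFA1 had means of 14.08, and those of RPS4 13.69 and 13.39. All 4 probe sets of RPS3A were lowest on replicate 2, with means of 13.86, 13.42, 13.35 and 8.62. For GOS2, RPL27 and RPS21, each with 3 probe sets, 0 were lowest there.

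Among the members' probe sets, 1 of RPS21 had the largest SD between samples. The brightest was level at 14.18, 14.20 and 14.21, while a second read 12.13, 11.87 and 11.79. The other one, marked A1 in its ID, read 8.97, 8.53 and 6.41, a shift of -2.34 on replicate 3 and an SD of 1.37 (n = 3). That SD was 9.32 times its trend, with an unadjusted p of 0.000833 in the variance ratio (F) test and an adjusted p of 0.846. Of all 57258 probe sets, 6 had a shift this low or lower on replicate 3. GOS2 also had a probe set that fell away from the brightest: it read 13.10, 12.86 and 12.70. Its unadjusted F test p was 0.0447 and its adjusted p 0.94.

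The probe sets used for 10 of the 33 members end in _x_at, _s_at or _a_at, which can bind several transcripts. Those in _x_at or _s_at can bind transcripts of several related genes. They are those of RPL39B, RPL9, RPL10A, RPL18, RPL39C, RPL27, RPS3A, rps20, rps14 and REFA1. Ribosomal protein genes have near-identical copies, so the split of signal between copies is uncertain for those read from _x_at or _s_at probe sets. RPL18 was read from an _a_at probe set. Without such probe sets 29 members were left, and 9 large subunit genes, 11 small subunit genes and 7 factors of these exceeded the ceiling on every array. The exceptions were RPL10A and rps20, whose remaining probe sets are the dim ones given above.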

How the data were processed

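The deposited table holds log2 values, 1 per probe set. The submitters' processing notes name Affymetrix Expression Console and RMA, a robust multi-array average. RNA (6 ug per sample) was labelled with biotin, per the labels' protocols. No version or genome build is stated there. This method removes background, equalizes the distributions of the arrays and summarizes probes, so differences in total RNA are removed and low values compressed. The number of arrays, 3, limits the precision.

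Of 57381 probe sets, 123 controls were left out of the fit. The platform annotation paired 22436 with 1 gene and 95 with several, and only the former were used. Per gene the probe set with the highest mean was taken. The ceiling is the highest Tag control of each array. Spread was tested from an intercept-only limma 3.58.1 (R 4.3.3) fit with trended robust eBayes. A variance ratio (F) test then set each variance against the prior. Its 3.65 prior degrees of freedom were the value for the bulk of probe sets. The lowered values that robust eBayes gives to outlying probe sets were not used.

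Every member was named. Values on every array were given, per class, for the 3 highest and 2 lowest means, the 3 highest SDs and probe sets that differ in call, and for the 5 largest shifts of each array. Values on every array were also given for RPL11, RPL7A-1, RPS10-2, RPS27AB and some genes that are no members, chosen after they were seen. Members and lists were chosen with earlier results of these data known. No sequence or promoter was used.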

Additional observations from a re-analysis of the deposited data

Results flagged for a closer look

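A signal outside the genes measured here stood out in the 4 controls for 18S, 25S and 28S ribosomal RNA, each of them brighter than the Tag controls on every array. They shifted by -2.30 log2 on replicate 3, while no member shifted by more than 0.27 there in the probe set used for it. Another probe set of RPS21, marked A1, shifted by -2.34 on that array. No group of 4 or more samples and no contrast in several groups exists, so single samples and differences between groups were not screened.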

How the results depend on the processing

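Counts above the ceiling, median levels, SDs and shifts, and counts of the variance test were computed again with other choices. Of 156 such values, 137 moved by less than a set limit. For counts it was 1.5 times. For the rest it was the SD of the class medians between arrays: 0.034, 0.029 and 0.066 for large subunit, small subunit and factors. For factors this SD exceeded each of their median shifts, so a change of sign could count as no move. The factors' shift on replicate 3 went from -0.032 to 0.015 without replicate 1. That of the large subunit on replicate 1 went from 0.029 to -0.0044 when quantile normalized again. Of the 137, 12 values came from members above the ceiling only and 9 from setting lower values to the ceiling. These could not move, since all 33 members lay above it. With 1 replicate left out, the shifts of the 2 remaining arrays are equal and opposite, so they are not separate checks. Where values moved beyond the limit, the cause was not tested unless given. With the probe sets of a gene averaged, the large subunit shifted by -0.011 on replicate 1 and 0.046 on replicate 3 and the small subunit by 0.0006 on replicate 3, and median levels were 13.31 for the small subunit and 11.71 for factors. Without _x_at, _s_at and _a_at probe sets the large subunit shifted by -0.021 on replicate 1 and 0.053 on replicate 3, and the factors' level was 11.96, with fewer genes. When quantile normalized again, the small subunit shifted by 0.039 on replicate 1. By primary symbol alone only RPL7A-1 was left, so the large subunit had 1 gene, a level of 13.47, an SD of 0.0066 and shifts of -0.011 and 0.0057 on replicates 1 and 2, and the other classes had none. Leaving out 1 replicate gave the large subunit shifts of -0.0074 to 0.0046 on replicate 1 and 0.0074 to 0.048 on replicate 3, and the small subunit -0.0066 to 0.083 on replicate 1. The median shift on replicate 2 stayed below 0 in all 3 classes under every choice but the primary symbol alone, at -0.048 to -0.0046, -0.083 to -0.053 and -0.093 to -0.015 with 1 replicate left out. The variance test called 20 probe sets when only those over the median of every array were tested and 29 with 1 probe set per gene, and 0 otherwise, but 0 of the members under each choice (0 at an unadjusted p under 0.05 as well). Leaving out rps14, an alternative chosen after seeing the data, moved no value of the small subunit beyond this spread. No paired analysis was possible because there is a single group.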
